A study of Rattus norvegicus with 12 samples.

Results

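The diet given after weaning was compared in hearts of young adult rats born to Lean dams. Every gene model of the deposited table was taken in the 3 libraries of offspring on a high fat and sucrose diet (Lean-HFS) and the 3 libraries of offspring on a low fat diet (Lean-LF), which are 6 of the 12 libraries of the series. Of the 17322 models, 12983 had enough reads to be tested, meaning a mean scaled read value of at least 0.5 over the 12 libraries. All animals were Sprague Dawley rats, an outbred laboratory stock. The dams of both groups ate the low fat diet and had no gestational diabetes (GDM), so the groups differed by the diet eaten from weaning at 3 weeks until whole hearts were taken at 15 weeks. The other 6 libraries came from offspring of dams with GDM induced by the high fat and sucrose diet before mating, in pregnancy and during lactation, and were likewise split into GDM-LF and GDM-HFS. The design planned 6 animals per group, and 3 libraries per group were analysed here. Sex and litter are not given in the sources used here, so a p-value here speaks only for the spread among these samples. Whole hearts hold atria, ventricles, vessels, blood and adhering fat, and fewer cells of a type cannot be told apart from less RNA per cell.

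The heart draws most of its energy from fatty acids, which lipoprotein lipase releases from circulating triglyceride at the capillary wall, and the rest from glucose, lactate, ketone bodies and amino acids. Fatty acids inside the cell activate PPAR receptors, which raise the genes for fatty acid uptake and oxidation. These receptors also raise Pdk4, the kinase that switches off pyruvate dehydrogenase. All of these fuels end in the citric acid cycle and the respiratory chain, whose subunits come mostly from nuclear genes. The comparison asks what a fat- and sugar-rich diet did to these transcripts in hearts that had not been exposed to GDM before birth.

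Values are reads per gene model, scaled so that libraries are comparable and not divided by gene length, so levels are compared between libraries and never between genes. Outside ribosomal RNA models, 9172734 to 11622377 reads were recovered in each of the 6 libraries. Ribosomal RNA models held a large and uneven share of all reads, from 48.7% in Lean-LF 2 to 70.7% in Lean-LF 1. Cardiac identity was clear in each: the 12 cardiomyocyte markers, such as Tnnt2 and Mybpc3, were all detected, and their summed value was 197467 to 227773 in Lean-LF and 143137 to 211071 in Lean-HFS. The library Lean-HFS 2 stood apart from the other 5 on the first principal component (24.5% of the variance). Its score was 40.7, against -26.4 to 7.74 in the others. On the second component (23.6%) Lean-LF 1 stood apart, at 37.1 against -26.0 to 14.9. Of 10899 genes with a mean of at least 5, 62 were at least 2-fold above all other libraries in Lean-HFS 2. This count was 1 to 15 in each of the other 5. Genes at least 2-fold below all other libraries numbered 30 in Lean-HFS 2, 27 in Lean-LF 1 and 23 in Lean-LF 3. The rest had 6 to 15. Results that rest on Lean-HFS 2 are therefore given with and without it.

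No gene passed the test between Lean-HFS and Lean-LF. With limma, 0 of 12983 genes (percent called 0) had an adjusted p under 0.05, and edgeR and DESeq2 on the recovered reads also called 0. An unadjusted p under 0.05 was reached by 676 genes (5.21%), of which 343 were higher (2.64%) and 333 were lower (2.56%), with 649.15 to be expected by chance. EdgeR gave 646 such genes (4.98%) and DESeq2 gave 633 (4.88%). The 3 Lean-HFS values lay entirely above the 3 Lean-LF values for 682 genes (5.25%) and entirely below for 617 (4.75%), together 1299 genes (10%). Without Lean-HFS 2, limma again called 0 genes and 521 (4.01%) had an unadjusted p under 0.05. The median standard error of a log2 difference was 0.16. At that error a gene standing alone needed a log2 difference of 1.22 (2.32-fold) to pass, and smaller differences were not detectable. Genes with a smaller error needed less, and the lower quartile of the errors was 0.11. All values that follow describe genes and gene groups that did not pass.

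The call of 0 genes depended on 1 library. Without Lean-LF 3, limma called 3 genes, all higher in Lean-HFS, and these are named after their values were seen. Cryl1, the lens crystallin relative that oxidises gulonate, had values of 100, 75.2 and 253 in Lean-LF and 343, 189 and 296 in Lean-HFS. Its log2 difference was 1.62 ± 0.20 (SE) without Lean-LF 3 (limma, adjusted p = 0.0280) and 1.11 with all 6 libraries (limma, adjusted p = 0.881). Rims1, a scaffold of vesicle release sites, had 2.77, 1.70 and 43.7 against 16.1, 12.3 and 26.0, and Vsig2, an immunoglobulin-domain membrane protein, had 0, 0 and 1.85 against 2.60, 2.34 and 2.81 (limma, adjusted p = 0.0371 for both without Lean-LF 3). In Cryl1 and Rims1 the Lean-LF 3 value lay inside or above the Lean-HFS range, while for Vsig2 the groups did not overlap.

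The 12 higher and 12 lower genes of smallest unadjusted p after a filter are described next, each with an adjusted p of 0.881 in limma. The filter kept genes with an official symbol and a mean of at least 5, clear of overlapping models and with no overlap between the groups. The gene of smallest p among all tested genes, with an adjusted p of 0.802 in limma, did not pass this filter. The choice itself fixed that the groups separate for the 12 higher and 12 lower genes. Gpihbp1, the endothelial protein that holds lipoprotein lipase at the capillary wall (Rnor_6.0 chr7:116632496-116635543), had 20.0, 46.5 and 25.9 in Lean-LF and 78.2, 66.1 and 89.1 in Lean-HFS, a log2 difference of 1.42 ± 0.38. Rbp7, a retinol-binding protein of capillary endothelium and fat, had 24.4, 35.2 and 20.4 against 61.3, 37.8 and 55.2, a log2 difference of 0.95 ± 0.27. In both, Lean-LF 2 was the highest of the Lean-LF libraries and Lean-HFS 2 the lowest of the Lean-HFS libraries. Trmt10b, a transfer RNA methyltransferase, had 8.32, 8.95 and 9.26 against 19.0, 14.7 and 16.4, a log2 difference of 0.90 ± 0.20. Acvr1b, a type I receptor for activin, had 66.0, 67.6 and 64.3 against 81.8, 88.6 and 89.3, with a log2 difference of 0.39 ± 0.10. The other 8 higher genes were Stard6, Masp2, Pla2g4a, Nrxn2, Pibf1, Zdhhc20, Tril and Tmcc3, with log2 differences of 0.26 to 1.19.

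On the lower side, Slc25a29, the mitochondrial carrier of basic amino acids (chr6:132736974-132747762), had 44.9, 41.8 and 40.3 in Lean-LF and 27.5, 22.5 and 28.5 in Lean-HFS, a log2 difference of -0.70 ± 0.14. Il18bp, the decoy protein that binds interleukin 18, had 26.3, 32.2 and 30.3 against 17.4, 16.8 and 17.8, a log2 difference of -0.77 ± 0.16. Within each group the values of both genes lay close together. Acadsb, the dehydrogenase of short branched acyl-CoA in isoleucine breakdown, had 309, 288 and 208 against 121, 200 and 133, a log2 difference of -0.84 ± 0.23. Hmgcs1, the cytosolic synthase at the start of the sterol pathway, had 110, 113 and 116 against 95.9, 80.4 and 83.5, a log2 difference of -0.39 ± 0.10. The hexokinase Hk2 and the complex III subunit Uqcrb belong to this set and are described with their pathways. The other 6 were Exosc4, Cep78, Rd3l, Gstm2, Dcaf11 and S100a13, with log2 differences of -0.91 to -0.42.

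**Figure D1:**
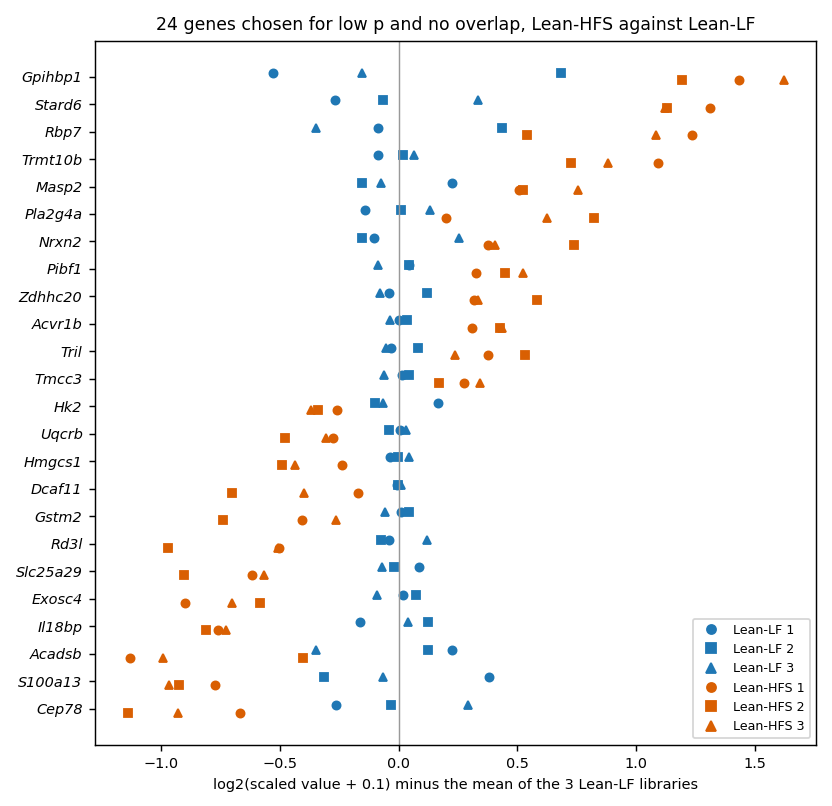
Each row is 1 gene and each point 1 library, placed by its log2(scaled value + 0.1) minus the mean of the 3 Lean-LF libraries, with Lean-LF points drawn just above Lean-HFS points. The groups separate in all 24 rows because the genes were chosen for that; Gpihbp1 (log2 difference 1.42) and Cep78 (-0.91) lie at the ends of the plot.

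The diet difference of the GDM offspring was not used in choosing these 24 genes, although their libraries entered the standard errors and the filter behind the choice. Of the 12 genes higher in Lean-HFS, 10 were also higher in GDM-HFS than in GDM-LF, and 7 of the 12 lower genes were also lower. With an unadjusted p under 0.05 in the same direction there were 8 of the 24: Acvr1b, Gpihbp1, Rbp7 and Tmcc3 on the higher side and Exosc4, Gstm2, Slc25a29 and Uqcrb on the lower. Over all genes, that contrast called 0, and 5.57% had an unadjusted p under 0.05 (2.87% higher and 2.7% lower), while 51.3% were higher and 48.7% lower at any p. Because the standard error of a gene is pooled over all 12 libraries, genes picked for a small p also tend to have a small error in the GDM contrast. Slc25a29 had means of 35.6 ± 1.31 (SD, n = 3) in GDM-LF and 22.3 ± 2.12 in GDM-HFS, a log2 difference of -0.68 ± 0.14 beside the -0.70 in Lean offspring. Gpihbp1 had means of 35.5 ± 22.1 and 64.0 ± 13.2, a log2 difference of 1.02 ± 0.38. By contrast, Il18bp had means of 17.3 ± 1.505 and 17.5 ± 2.04 in the GDM libraries, both at the Lean-HFS level, and a log2 difference of 0.01.

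For fatty acid use, the 28 tested PPAR target genes leaned higher in Lean-HFS, with 20 higher and 8 lower and a median log2 difference of 0.16, beside 0.00 over all tested genes, of which 51.1% were higher and 48.9% lower. Of the 28, 2 were higher at an unadjusted p under 0.05, against 2.64% of all genes. Without Lean-HFS 2 the median was 0.32 and 26 were higher, 9 of them at that level, against 49.9% of all genes higher and 2.08% higher at that level. The median was 0.30 without Lean-LF 2, 0.06 without Lean-LF 3 and 0.02 without Lean-HFS 1. The mean deviation of the list from the 6-library mean was 0.42 in Lean-HFS 1 and 0.25 in Lean-HFS 3, but -0.14 in Lean-HFS 2, and in Lean-LF 2 it was 0.10 where the other Lean-LF libraries had -0.22 and -0.40.

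Pdk4, the kinase that switches off pyruvate dehydrogenase (chr4:30546772-30556774), had 400, 871 and 431 in Lean-LF and 1386, 672 and 1802 in Lean-HFS. Its log2 difference was 1.16 ± 0.58 (95% interval -0.09 to 2.41; limma, adjusted p = 0.881), and 1.57 without Lean-HFS 2. Lean-HFS 1 and 3 were above every Lean-LF library, and Lean-HFS 2 lay below Lean-LF 2. Angptl4, a secreted inhibitor of lipoprotein lipase, had 7.49, 23.4 and 4.63 against 32.0, 9.78 and 25.2, a log2 difference of 1.08 ± 0.53, or 1.59 without Lean-HFS 2, and there too Lean-HFS 1 and 3 lay above every Lean-LF library while Lean-HFS 2 lay below Lean-LF 2. Ucp3, a mitochondrial carrier that PPAR activation raises in muscle, had 63.8, 80.6 and 68.5 against 137, 41.9 and 171. Its log2 difference was 0.50 ± 0.50 with Lean-HFS 2, the lowest of all 6, and 1.12 without it. Acot1, a cytosolic acyl-CoA thioesterase, had 0, 0.853 and 0.925 against 2.60, 1.06 and 3.51, but so few reads can be shared with its near-identical paralogs that this value is uncertain.

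The receptor and the enzymes of mitochondrial entry had log2 differences near 0 with all libraries. Ppara had a log2 difference of 0.03 (95% interval -0.31 to 0.38), its coactivator Ppargc1a had 0.01 (-0.31 to 0.32), and the muscle carnitine palmitoyltransferase Cpt1b had 0.01 (-0.23 to 0.25). Without Lean-HFS 2 these were 0.09, 0.12 and 0.10. The liver-type Cpt1a had 324, 357 and 316 against 406, 285 and 380, a log2 difference of 0.09 (-0.27 to 0.45) and of 0.24 without Lean-HFS 2. Its values in Lean-HFS 1 and 3 lay above every Lean-LF library and that in Lean-HFS 2 below them all, as for Ucp3. The 31 genes of fatty acid oxidation had a median log2 difference of -0.07 with 21 lower, and 0.10 with 5 lower when Lean-HFS 2 was left out, so the direction of this list turned on that library. Leaving out Lean-HFS 2, 4 of the 31 were higher at an unadjusted p under 0.05, against 2.08% of all genes. With that library there was 1 of 31, against 2.64% of all genes. It was Pex11a, a peroxisome division factor, which had 5.55, 11.1 and 8.80 against 19.7, 7.65 and 23.4.

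In the list of fatty acid uptake, esterification and storage, 18 of 28 genes were higher, with a median of 0.05, or 0.11 without Lean-HFS 2 and -0.01 without Lean-HFS 1. No overlap between the groups was seen for 4 higher and 3 lower members, against 5.25% and 4.75% of all genes. At an unadjusted p under 0.05, 4 were higher and 1 was lower, against 2.64% and 2.56% of all genes. The lower one was Acsl3, an acyl-CoA synthetase, which had 56.9, 53.7 and 67.1 against 37.9, 48.0 and 51.0, a log2 difference of -0.38 ± 0.14. Among the higher ones were Gpihbp1 and Agpat2, an acyltransferase of triglyceride synthesis, which had 53.8, 53.7 and 56.2 against 65.2, 73.6 and 65.2. Lpl, lipoprotein lipase itself, had 10483, 10914 and 10105 in Lean-LF and 9065, 7109 and 9292 in Lean-HFS, a log2 difference of -0.32 ± 0.15, or -0.19 without Lean-HFS 2, with no overlap between the groups. Plin1, the droplet coat of adipocytes, had 3.05, 0.426 and 0.925 against 8.83, 3.61 and 7.01, a log2 difference of 2.37 ± 0.98. The droplet coats of heart muscle were close to 0, at 0.07 for Plin2 and -0.05 for Plin5. Cd36, the fatty acid translocase, had a log2 difference of 0.24 ± 0.13, but its model overlaps another and shares reads with it.

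**Figure D2:**
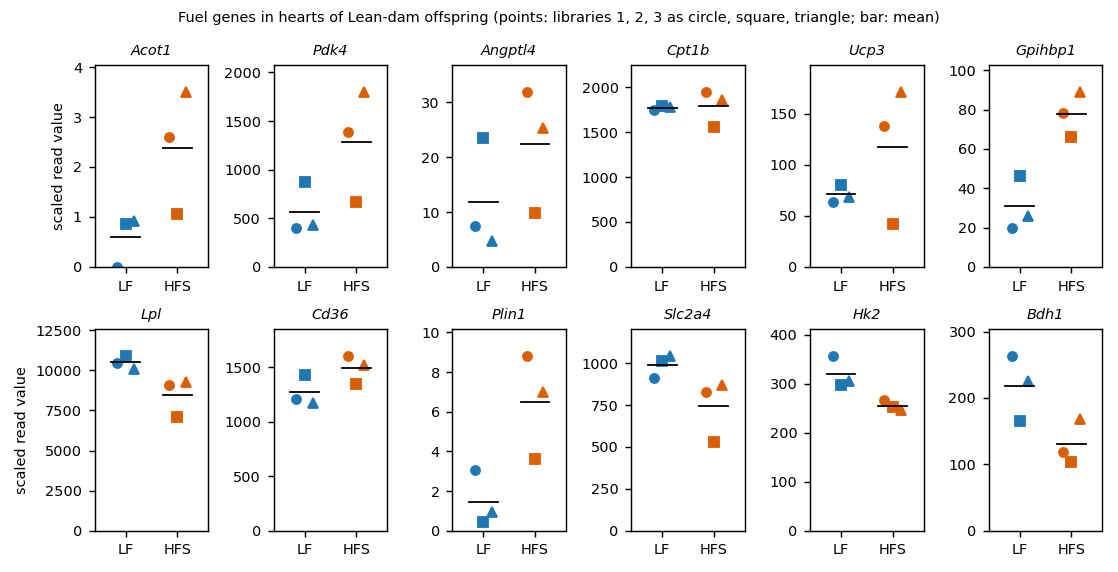
Scaled read values of 12 fuel genes, with Lean-LF in blue and Lean-HFS in orange, 1 point per library and a bar at the mean of 3; each panel has its own linear axis from 0. Lean-HFS 2, the orange square, is the lowest Lean-HFS library for Pdk4 (672), Angptl4 (9.78) and Ucp3 (41.9), and the groups do not overlap for Gpihbp1, Lpl, Slc2a4, Hk2, Plin1 or Acot1.

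Markers of fat cells moved with these genes. Of 16 tested adipocyte markers, 14 were higher in Lean-HFS, with a median of 0.50, and 4 were higher and 1 lower at an unadjusted p under 0.05, against 2.64% and 2.56% of all genes. The median was 0.25 without Lean-LF 3 and 0.27 without Lean-LF 1. Their mean deviation was 1.10 in Lean-HFS 1, 0.58 in Lean-HFS 3 and -0.23 in Lean-HFS 2, against -0.91 to -0.22 in Lean-LF. The defining markers were at a few reads: Adipoq, the adipocyte hormone adiponectin, had 3.33, 2.13 and 0.463 against 8.83, 0.850 and 6.31, and Lep, the hormone leptin, had 0, 2.56 and 1.85 against 4.16, 0.850 and 5.14. Pck1, which makes glycerol for triglyceride in fat cells, had 2.77, 2.13 and 2.32 against 26.5, 4.25 and 17.8. Ucp1, the uncoupling protein of brown fat, had 0 reads in all 3 Lean-LF libraries and in Lean-HFS 2, and values of 11.4 and 5.61 in Lean-HFS 1 and 3. Elovl3 had no read in any of the 6. The summed value of the list was 3106 to 3611 in Lean-LF and 3005 to 3935 in Lean-HFS. The part of fat cells in the PPAR target, Plin1 and Gpihbp1 values was not tested.

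Genes of glucose use leaned lower. In the list of glucose uptake, glycolysis and glycogen, 21 of 31 were lower with a median log2 difference of -0.12, and 6 were lower and 0 higher at an unadjusted p under 0.05, against 2.56% of all genes lower at that level. Without Lean-HFS 2 the median was -0.07, with 4 lower at that level, against 1.93% of all genes. As deposited the median was -0.01, where all genes had 0.11. Slc2a4, the insulin-responsive glucose transporter GLUT4 (chr10:56552983-56558487), had 911, 1014 and 1045 in Lean-LF and 829, 531 and 867 in Lean-HFS. The groups did not overlap, with a log2 difference of -0.45 ± 0.15 (limma, adjusted p = 0.881), or -0.22 without Lean-HFS 2. Hk2, the hexokinase that traps the glucose this transporter admits (chr4:113560880-113609897), had 357, 297 and 305 against 266, 252 and 247. Its log2 difference of -0.32 ± 0.09 was -0.31 without Lean-HFS 2. Eno3, the muscle enolase, had 1063, 771 and 932 against 741, 482 and 734, a log2 difference of -0.52 ± 0.15, or -0.31 without Lean-HFS 2. The other glucose transporter, Slc2a1, had -0.06, and Txnip, a glucose-responsive brake on uptake, had 0.01 with a range over libraries of 1284 to 3099. Akt1, a kinase of insulin signalling, had 431, 421 and 421 against 365, 366 and 322, a log2 difference of -0.28 ± 0.08, while the whole list of insulin and growth factor signalling was centred on 0.05 with 19 of 33 higher.

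Breakdown of branched-chain amino acids and ketone bodies was the metabolic list with the lowest median. In it, 20 of 21 tested genes were lower in Lean-HFS, with a median of -0.25. At an unadjusted p under 0.05, 10 were lower, against 2.56% of all genes. Without Lean-HFS 2 the median was -0.14, with 17 lower and 5 at that level, against 50.1% and 1.93% of all genes. Its members on the valine, leucine and isoleucine route included Acadsb, already described, and Dbt, the core of the branched-chain dehydrogenase, which had 501, 555 and 571 against 440, 342 and 472, a log2 difference of -0.39 that was -0.25 without Lean-HFS 2. Ppm1k, the phosphatase that activates that dehydrogenase, had 495, 500 and 462 against 432, 298 and 382, a log2 difference of -0.41 ± 0.12, or -0.26 without that library. Pcca, a subunit of propionyl-CoA carboxylase further down the route, had 683, 600 and 686 against 564, 517 and 572. Bdh1, which oxidises the ketone body hydroxybutyrate, had 264, 165 and 226 against 118, 104 and 169. Its log2 difference was -0.75 ± 0.29 in Lean offspring, or -0.60 without Lean-HFS 2, and -0.97 ± 0.29 in GDM offspring. The groups did not overlap for Acadsb, Dbt, Ppm1k and Pcca and overlapped in 1 library each way for Bdh1. In GDM offspring the median of the list was -0.11, with 15 of 21 lower. The diet difference there was 0.07 for Acadsb, -0.28 for Dbt, -0.17 for Ppm1k and -0.11 for Pcca.

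Nuclear genes of the respiratory chain were lower in Lean-HFS in nearly every case, by small amounts. All 33 tested subunits of complex I were lower, with a median log2 difference of -0.21 and a range of -0.39 to -0.02. Of the 41 tested subunits of complexes II to V, cytochrome c included, 39 were lower, with a median of -0.20. At an unadjusted p under 0.05, 11 of the 33 and 10 of the 41 were lower, against 2.56% of all genes. None was higher. Lean-HFS lay below Lean-LF without overlap for 10 of the 33 and 5 of the 41, against 4.75% of all genes. No member passed the adjusted test. Much of the size came from Lean-HFS 2: without it the medians were -0.08 and -0.07, with 29 of 33 and 36 of 41 lower. Of these, 0 and 1 were lower at an unadjusted p under 0.05, against 1.93% of all genes. The mean deviation of complex I was 0.09 to 0.13 in the 3 Lean-LF libraries, 0.04 and 0.01 in Lean-HFS 1 and 3, and -0.38 in Lean-HFS 2, so the groups did not overlap although the gap without that library was small. As deposited, without the scaling that centres all genes, the medians were -0.11 and -0.10 while that of all genes was 0.11.

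Uqcrb, a subunit of complex III (chr7:71264502-71269869), had the smallest p of the chain, with 420, 407 and 428 in Lean-LF and 345, 300 and 339 in Lean-HFS. Its log2 difference of -0.35 ± 0.09 was -0.29 without Lean-HFS 2 and -0.31 in GDM offspring. Ndufb9, an accessory subunit of complex I, had 936, 859 and 911 against 746, 607 and 812, a log2 difference of -0.33 ± 0.11, or -0.21 without Lean-HFS 2. Cox5b, of complex IV, had 730, 768 and 774 against 665, 466 and 695, and Cycs, the electron carrier cytochrome c, had 1205, 1237 and 1234 against 1179, 892 and 1040. For these 4 genes the groups did not overlap, and without Lean-HFS 2 Cox5b had a log2 difference of -0.16 and Cycs -0.15. Atp5me, a membrane subunit of the ATP synthase, had a log2 difference of -0.42 ± 0.16, the lowest of the chain with all libraries but -0.18 without Lean-HFS 2, with 383, 360 and 389 against 363, 203 and 304, and Lean-HFS 1 lay within the Lean-LF range. In GDM offspring the medians of the same lists were -0.19 for complex I, with 33 of 33 lower, and -0.20 for complexes II to V, with 40 of 41 lower. These come from other libraries, and no member differed between the dam groups at an unadjusted p under 0.05.

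**Figure D3:**
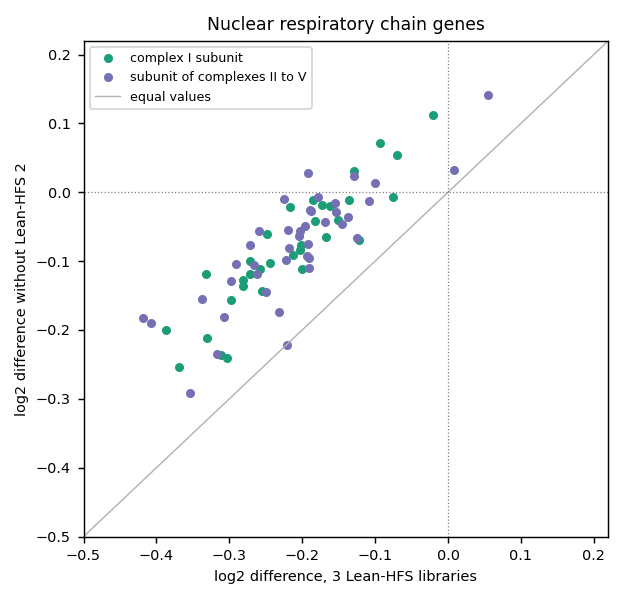
Each point is 1 nuclear respiratory chain gene, placed by its log2 difference between Lean-HFS and Lean-LF with all libraries (horizontal) and without Lean-HFS 2 (vertical). Points lie left of 0 for 72 of 74 genes and nearly all lie above the line of equal values, so the differences are closer to 0 without that library.

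The promoters of these subunits were read for the core of the site bound by NRF1, an activator of many nuclear respiratory genes. The letters GCGCATG were searched on both strands in the 250 bases before the RefSeq start of each gene (GRCr8). A match and its reverse complement overlap where the full palindrome is present. Of 66 chain promoters found in the table, 12 held a match (18.2%), 4 of 32 in complex I and 8 of 34 in complexes II to V. Of all 33469 promoters of the same length, 1090 held one (3.26%), and base composition was not matched between these sets. The sets also differ in kind. Chain genes were limited to those with 1 promoter, while the full set kept genes with several and was not limited to tested genes. The 12 were those of Ndufa6, Ndufa11, Ndufb6, Ndufb8, Sdhb, Uqcrc1, Cycs, Cox5b, Atp5mc2, Atp5po, Atp5me and Atp5mg. The 3 whose read values are given above are shown 5′ to 3′ on the strand of the gene, with matches in capitals. In Atp5me a pair of matches overlap to form the palindrome, 76 bases before the start, while Cox5b and Cycs each hold 1 match, 136 and 156 bases before it. A match describes letters and is not a binding site, and a window without one says nothing of the factor. Whether a match goes with the diet difference was not tested.
Cox5b, chr9:46417587-46417836, plus strand: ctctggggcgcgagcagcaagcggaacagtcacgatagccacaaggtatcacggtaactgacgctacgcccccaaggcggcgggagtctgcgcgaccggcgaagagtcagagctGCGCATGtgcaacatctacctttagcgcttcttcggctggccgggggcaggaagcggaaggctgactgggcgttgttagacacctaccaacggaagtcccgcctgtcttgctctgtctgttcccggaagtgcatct
Cycs, chr4:80984768-80985017, minus strand: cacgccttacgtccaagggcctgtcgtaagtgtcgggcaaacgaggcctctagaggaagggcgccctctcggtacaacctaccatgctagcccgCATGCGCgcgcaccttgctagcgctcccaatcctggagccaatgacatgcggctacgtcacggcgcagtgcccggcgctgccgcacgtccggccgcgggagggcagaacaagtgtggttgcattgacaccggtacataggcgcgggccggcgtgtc
Atp5me, chr14:1464610-1464859, plus strand: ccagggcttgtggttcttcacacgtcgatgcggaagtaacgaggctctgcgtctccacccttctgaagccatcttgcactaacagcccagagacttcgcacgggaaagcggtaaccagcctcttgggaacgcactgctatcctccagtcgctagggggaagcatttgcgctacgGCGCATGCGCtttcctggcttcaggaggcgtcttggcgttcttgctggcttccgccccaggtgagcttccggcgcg

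The neighbouring mitochondrial lists leaned the same way. Of the genes of the citric acid cycle and pyruvate entry, 26 of 28 were lower with a median of -0.14, and Idh2, the mitochondrial isocitrate dehydrogenase, had 5343, 5469 and 5335 against 4689, 3900 and 4655. Of 68 genes of the mitochondrial ribosome, 65 were lower with a median of -0.17. Only 2 were lower at an unadjusted p under 0.05, against 2.56% of all genes. Without Lean-HFS 2 these medians were -0.03 and -0.06. Genes of the cytosolic ribosome were lower in 65 of 78, with a median of -0.09 that was -0.08 without that library and 0.01 as deposited, and Rpl32 had 148, 142 and 153 against 130, 110 and 116. Regulators of mitochondrial number and dynamics were centred on -0.03, with 21 of 35 lower.

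Contractile genes also leaned lower, in 21 of 25 sarcomere genes with a median of -0.16, or -0.12 without Lean-HFS 2 and -0.07 with quantile scaling. Tnni3, cardiac troponin I, had 9861, 9844 and 10006 against 8409, 5188 and 8562, and Myl2, the ventricular light chain, had 5213, 4825 and 5074 against 4150, 4031 and 3615, with no overlap in either, and without Lean-HFS 2 the log2 difference of Tnni3 went from -0.46 to -0.22. Cardiomyocyte markers moved with the mitochondrial lists: 11 of 12 were lower with a median of -0.22, or -0.13 without Lean-HFS 2, and with quantile scaling 7 of 12 were lower with a median of -0.04. Their part in the mitochondrial lists was not tested. The exception was Nppa, the atrial natriuretic peptide, which had 1161, 1468 and 428 in Lean-LF and 1712, 4960 and 3507 in Lean-HFS. Its log2 difference was 1.78 ± 0.86 (95% interval -0.06 to 3.62) with no overlap, or 1.44 without Lean-HFS 2. Atrial markers as a list were higher in 15 of 20 with a median of 0.16, or 0.30 without Lean-HFS 2. Ventricular markers were lower in 10 of 12 with a median of -0.21, or -0.11 without that library. Bmp10, an atrial growth factor, had 22.2, 22.2 and 10.9 against 139, 7.23 and 333, so that Lean-HFS 2 had the lowest Bmp10 and the highest Nppa of the 6. The share of atrial tissue in each sample was not tested as a part of the Nppa value. Nppb had a log2 difference of 0.31 and Myh7, the slow myosin chain, had -0.35, and reads of Myh7 and Myh6 may be shared between these near-identical neighbours.

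The extracellular matrix and macrophage values turned on Lean-HFS 2. With all libraries, 36 of 44 matrix genes were higher in Lean-HFS with a median of 0.15, and without Lean-HFS 2 there were 30 of 44 lower with a median of -0.08. Ctgf, a matricellular growth factor, had 252, 185 and 139 in Lean-LF and 235, 787 and 184 in Lean-HFS. Postn, the matrix protein of activated fibroblasts, had 55.5, 40.9 and 17.8 against 51.7, 371 and 23.4, and Tgfb2, a growth factor of the transforming growth factor family, had 76.8, 96.8 and 91.7 against 82.1, 274 and 102. In all 3 genes only Lean-HFS 2 was high. Macrophage markers were higher in 16 of 19 with a median of 0.24 and had -0.05 without Lean-HFS 2 and 0.09 without Lean-LF 3. Their summed value was 2043 in Lean-HFS 2 against 1112 to 1251 in the other 5 libraries. The same library had 28979 for Myh6, the main myosin chain of the rat ventricle, against 62587 to 81059 in the others. Its low respiratory chain values stood beside these matrix and macrophage values, and the link between them was not tested.

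The remaining lists gave small medians or few members at an unadjusted p under 0.05. Endothelial markers were higher in 16 of 19 with a median of 0.14, or 0.08 without Lean-HFS 2, and Pecam1, the junction protein of endothelial cells, had 453, 478 and 429 against 525, 570 and 523. Gpihbp1 and Rbp7 are genes of the same cells, and the part of the endothelial markers in their values was not tested. The endothelial list had -0.15 in GDM offspring, and 4 of its 19 members differed between the dam groups at an unadjusted p under 0.05, against 3.01% of all genes. Genes that glucocorticoids raise were higher in 16 of 19 with a median of 0.34, or 0.18 without Lean-HFS 3 and 0.21 without Lean-LF 1, none at an unadjusted p under 0.05, and Pdk4 and Angptl4 are also members of that list. Sterol and fatty acid synthesis was centred on 0.00 with 18 of 37 higher: Scd2, a desaturase, had 177, 257 and 268 against 130, 189 and 136, while Fasn, the fatty acid synthase, had 94.9, 65.0 and 78.2 against 211, 85.0 and 80.4. Antioxidant genes were centred on -0.05, with Gstm2, a glutathione transferase, at 308, 315 and 293 against 230, 183 and 254. Clock genes had a median of -0.10 with none at an unadjusted p under 0.05, genes of antigen presentation -0.01 and the cell cycle -0.02. Without Lean-HFS 2 these were -0.07, -0.05 and -0.07. Interferon-response genes had -0.03 with 21 of 36 lower, and -0.15 with 28 of 36 lower without Lean-HFS 2.

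**Figure D4:**
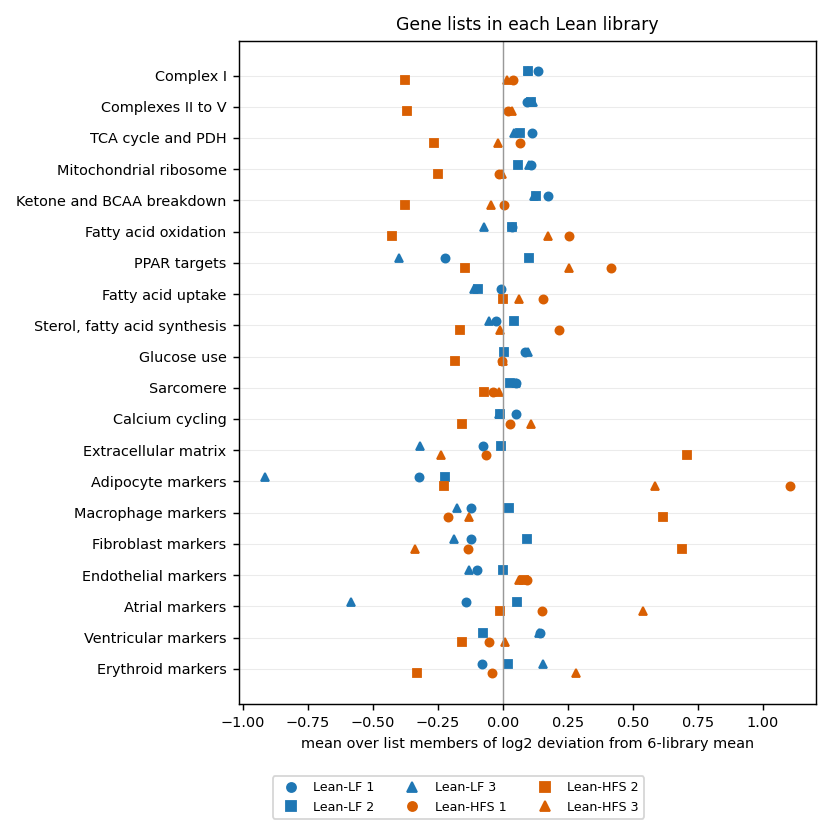
Each row is 1 gene list and each point 1 library, placed by the mean over tested members of the log2 deviation from the mean of the 6 Lean libraries. Lean-HFS 2, the orange square, lies at -0.38 for complex I and 0.71 for the extracellular matrix, while for adipocyte markers Lean-HFS 1 (1.10) and Lean-HFS 3 (0.58) lie above the rest.

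Whether the diet difference depended on the dam was tested as an interaction, the GDM diet difference minus the Lean one. Limma called 0 of 12983 genes (percent called 0, smallest adjusted p = 0.999), and 391 genes (3.01%) had an unadjusted p under 0.05. The median standard error of this contrast was 0.23, so differences between the diet effects had to be larger to be seen. The 5 genes of smallest p had adjusted p-values of 0.999 in limma. Tmem179 had a diet difference of 0.00 in Lean and -0.76 in GDM offspring, and Rd3l had -0.66 and 0.31. Ephx2, the soluble epoxide hydrolase of lipid epoxides, had means of 108 ± 38.3 and 63.1 ± 6.52 (SD, n = 3) in Lean-LF and Lean-HFS against 80.1 ± 21.5 and 111 ± 6.56 in GDM-LF and GDM-HFS. Acrbp, at a few reads, had diet differences of 1.52 and -1.01. Zfyve21 had -0.25 and 0.31, but its model shares reads with an overlapping one. Pdk4 had means of 1211 ± 880 in GDM-LF and 1165 ± 269 in GDM-HFS, with an interaction of -0.82 ± 0.82 (SE).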

How the data were processed

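Per the labels, hearts gave total RNA, libraries were strand-marking after removal of ribosomal RNA, reads were pairs of 100 bases, and STAR 2.5.1b placed them on Rnor_6.0. Ribosomal RNA models still held 48.7% to 70.7% of the reads in the Lean libraries. Trim Galore, FastQC, HOMER 4.9 and edgeR appear in the submitters' processing notes with no role. The deposited table is called FPKM and was planned for as such, but its values are a read signal: whole reads times a constant for each library, not divided by length (100% whole within 0.1 read). How reads were counted was not given in the sources used here. Of values from 1 to 40 reads, 68.8% to 73.6% were even numbers in the Lean libraries. Whether both mates of a pair were counted as separate reads was not tested. A median-of-ratios factor (0.886 to 1.10 in the Lean libraries) scaled each library. Unscaled, all genes had a median log2 difference of 0.11. Overlapping models share reads, and for 1005 tested models (7.74%) another holds at least 25% of their value.

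Log2(scaled value + 0.1) was fitted with limma 3.58.1 (R 4.3.3, variance trend) over all 12 libraries in 4 group means with 8 residual degrees of freedom, two-sided, with Benjamini-Hochberg adjustment over 12983 genes and a threshold of 0.05. The added 0.1 shrinks log2 differences of low genes, while a library with no read can make them larger than the group means show. Errors of log2 differences are standard errors. EdgeR 4.0.16 and DESeq2 1.42.0 were run on the recovered reads. The fit was tested on simulated data. Other alternatives were a pseudocount of 1, the low-value filter, TMM and quantile scaling, the replicate block, a robust fit, the 6 Lean libraries alone and each library left out. Named genes were the 12 of smallest p in each direction after the filter given above, and 27 core genes. Also named were the 4 of smallest p in each list, any list member with a p under 0.01, and the 5 of smallest interaction p. Adipoq, Lep, Ucp1, Elovl3 and Myh6 were named as defining markers after their values were seen. The members and gene lists were chosen with earlier results of these data known. 1 core gene is not reported here.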

Additional observations from a re-analysis of the deposited data

How the results depend on the processing

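The number of genes called between Lean-HFS and Lean-LF was 0 in every setting run except without Lean-LF 3 (range 0 to 3 when leaving out each library), and the interaction gave 0 in all 22 settings. Replicate numbers recur across groups. Same-numbered Lean libraries deviated together with correlations of 0.075, 0.063 and 0.115, each the best match for its number. Other-numbered Lean pairs had -0.070 to -0.006. Same-numbered GDM libraries had -0.077, 0.085 and -0.098. Whether same-numbered libraries share a litter or a batch is not given in the labels and was not tested. With the replicate as a block 0 genes were called (677 at an unadjusted p under 0.05) and 0 for the interaction (428). Leaving out each Lean library, medians ranged from -0.29 to -0.08 for complex I, -0.30 to -0.07 for complexes II to V, -0.20 to 0.10 for fatty acid oxidation, 0.02 to 0.32 for PPAR targets and -0.08 to 0.27 for the matrix. Without leaving out a library, 19 of 47 list medians moved by more than the spread between libraries: 17 as deposited, where all genes had 0.11, the cardiomyocyte and sarcomere lists with quantile scaling (-0.04 and -0.07), and the epicardial list at a pseudocount of 1 and a mean of at least 5 (0.08 and 0.03, from 0.31). As deposited, without scaling, Plin5 had 0.0543 and Slc2a1 0.0409, a change of sign. Leaving out each library turned the sign of 12 of 50 genes, which ranged from -0.22 to 0.34 for Txnip, -0.15 to 0.38 for Arntl, -0.23 to 0.0790 for Plin5, -0.0582 to 0.10 for Cpt1b, -0.16 to 0.14 for Ppargc1a, -0.32 to 0.12 for Slc2a1, -0.18 to 0.19 for Ppara, -0.18 to 0.62 for Nppb, -0.42 to 2.13 for Scd, -0.0587 to 0.17 for Plin2, -0.061 to 0.38 for Per2 and -0.0112 to 0.24 for Cpt1a. The cause was not tested. Low-count genes such as Acot1, Lep and Adipoq rest on few reads in each library.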
